A study of Rattus norvegicus with 10 samples.

Results

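The 10 apolipoproteins described here, Apoa1, Apoa2, Apoa4, Apoa5, Apob, Apoc2, Apoc3, Apoe, Apoh and Apom, are plasma proteins that hepatocytes secrete. They were chosen by name, through the RefSeq accession that each array probe carries, and they gave 15 probes of the 40945 probes measured on every array, or 10 of the 13426 genes that could be named. The samples were livers of male Wistar rats, with 1 rat per array. The control group was 3 untreated rats. The TBI group was 3 rats given total-body irradiation with cobalt gamma rays, for which the labels state 6.5 Gy and the study's text names other doses. The MASM + TBI group was 4 rats that received MASM, a derivative of the plant alkaloid matrine, by mouth at 30 mg/kg a day for 3 days before the same irradiation. All livers were taken at 24 h, and there was no group given MASM without irradiation.

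Apolipoproteins are the protein part of lipoproteins, the particles that carry cholesterol and triglyceride in blood. ApoB is the scaffold around which the liver builds very-low-density lipoprotein (VLDL), and ApoA-I and ApoA-II form the frame of high-density lipoprotein (HDL). ApoC-II activates lipoprotein lipase, the enzyme that strips triglyceride from the particles, ApoC-III slows that step, ApoA-V promotes it, and ApoE is the ligand by which remnants are taken up again. In the rat genome Apoa1, Apoc3, Apoa4 and Apoa5 lie next to each other on chromosome 8, and Apoc2 and Apoe lie on chromosome 1 with Apoc4 and Apoc1 between them.

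In these livers the apolipoprotein mRNAs were among the brightest signals, and none of the 10 passed the test in any comparison of groups. Apoa4 and Apob had the largest estimated differences between TBI and control. Apoa4 was at 54.8% of its control level, and Apob was 1.25-fold higher on its brightest probe, with a smaller difference over the mean of its 5 probes. For the other 8 genes the estimated difference between TBI and control was between -0.10 and 0.24 on the log2 scale.

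The files hold 1 fluorescence intensity per spot, which was put on the log2 scale and quantile-normalized between the 10 arrays. On the arrays 56.2% to 70.1% of the spots that were not controls were well above background. Cdkn1a, a p53 target induced by DNA damage, separated the control from the irradiated rats and not TBI from MASM + TBI, with log2 intensities of 8.01 to 8.84 in control, 13.47 to 14.06 in TBI and 12.80 to 13.58 in MASM + TBI. TBI rat 3 stood apart in brightness, with a median log2 signal before normalization of 5.82 against 4.72 to 5.16 on the other 9 arrays. The arrays lay on 3 slides. All TBI rats were on slide 2 and no other rat was, so that TBI and slide cannot be told apart. MASM + TBI rat 3 was hybridised on slide 1, beside the controls, and the remaining MASM + TBI rats shared slide 3.

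**Figure D1:**
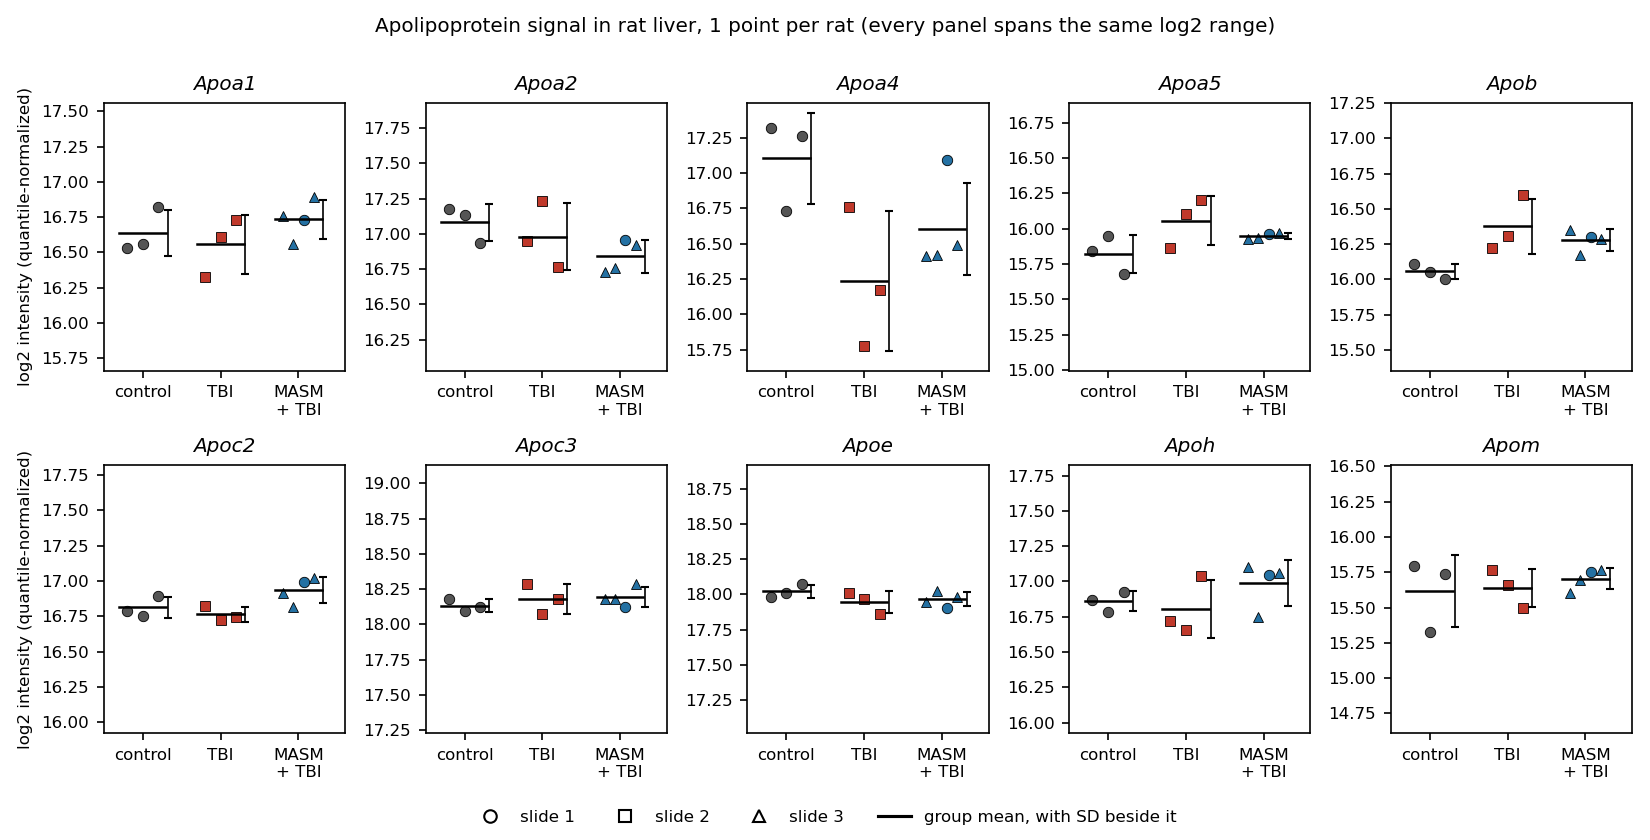
Log2 intensity after quantile normalization of the brightest probe of each of the 10 apolipoproteins, 1 point per rat, with the group mean (line) and SD (bar beside it) and with the slide as the shape of the point. All panels span the same range, so the wide scatter of Apoa4 (15.78 to 17.32) can be set beside the narrow scatter of Apoe (17.86 to 18.07).

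All 15 probes were well above background on all 10 arrays, and on every array the 10 brightest probes of the members ranked between position 1 and position 266. No spot was saturated. The brightest of them, Apoc3, reached 43.7% to 59.6% of the scanner's saturation value. At this brightness the spots had been read from a second scan at lower gain and scaled up, on all 10 arrays for the brightest probe of each member and on 0 arrays for the other 4 probes of Apob. The SD within groups had a median of 0.14 over the members, 0.12 over the 133 genes with a probe at least as bright as the dimmest member, and 0.22 over all genes. It was smallest for Apoe (0.06), Apoc3 and Apoc2 (0.08 each) and largest for Apoa4 (0.38).

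At an adjusted p under 0.05 in limma, 0 of 10 members were called for TBI against control, where 6.63% of all genes were called and 5.26% of the bright genes. For MASM + TBI against control 0 of 10 were called, beside 3.7% of all genes and 4.51% of the bright genes. Between MASM + TBI and TBI 0 of 10 were called, beside 1.08% of all genes and 0% of the bright genes (8 of the 133 had an unadjusted p under 0.05). The members with an unadjusted p under 0.05 numbered 2, 0 and 0 in these comparisons, beside 3393, 2756 and 2220 of the 13426 genes. Over all alternatives run, these numbers of members ranged from 0 to 4, 0 to 4 and 0 to 2. The numbers of all genes under those alternatives were not counted. The methods' t-test with adjustment called 0 members in each, where it called 10, 40 and 4 of the 40945 probes in all. The moderated F test over the 3 groups called 0 of 10, beside 6.17% of all genes, and had its smallest adjusted p for Apob (0.185) and Apoa4 (0.200). By the threshold of the study's methods, an unadjusted p under 0.05 and a change of at least 1.5-fold, 1 member was counted for TBI against control (Apoa4, beside 13.1% of all genes, and 0 members when the p came from the methods' t-test in place of limma), 0 for MASM + TBI against control (9.18%) and 0 for MASM + TBI against TBI (7.82%).

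The number of members higher and lower was 4 and 6 for TBI against control, and 7 and 3 in both other comparisons. The median log2 difference of the members was -0.05, 0.09 and 0.04, beside -0.01, -0.00 and 0.01 over all genes. Taken without sign it was 0.08, 0.12 and 0.13 for the members, 0.17, 0.13 and 0.11 for the bright genes, and 0.24, 0.20 and 0.18 for all genes. For 9 of the 10 members the 95% confidence interval lay within 1.5-fold either way in each comparison, and the exception was Apoa4 every time. This width bounds what 3 or 4 rats per group could show, and smaller differences were not resolved.

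**Figure D2:**
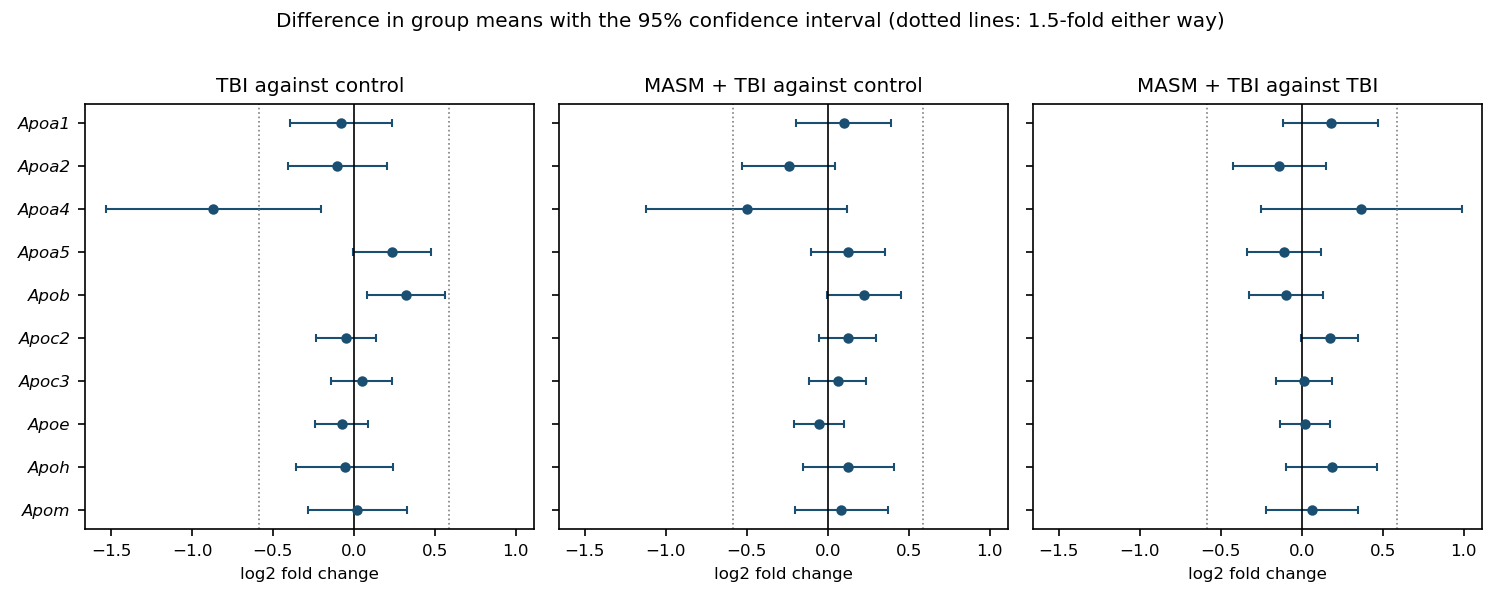
Log2 fold change of each member (point) with its 95% confidence interval (bar) in the 3 comparisons, and dotted lines at 1.5-fold either way. Only the intervals of Apoa4 cross a dotted line, and for TBI against control the intervals of Apoa4 (-1.53 to -0.21) and Apob (0.08 to 0.56) leave out 0.

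Apob, the structural protein of VLDL, had the smallest F p-value. On its brightest probe the control rats had log2 intensities of 16.11, 16.05 and 16.01. The TBI rats had 16.23, 16.31 and 16.60. The MASM + TBI rats had 16.35, 16.17, 16.30 and 16.29. All irradiated rats were above all control rats, and the TBI and MASM + TBI rats overlapped. TBI exceeded control by 0.32 (SE 0.11, adjusted p = 0.118) and MASM + TBI exceeded control by 0.22 (SE 0.10, adjusted p = 0.306), while MASM + TBI and TBI differed by -0.10 (95% interval -0.33 to 0.13). Without TBI rat 3, whose value was the highest, TBI exceeded control by 0.21. Over the mean of all 5 Apob probes TBI exceeded control by 0.16 (adjusted p = 0.622) and MASM + TBI exceeded control by 0.19 (adjusted p = 0.654). The difference of the brightest probe between MASM + TBI and control was 0.42 with scaling to the 75th percentile (adjusted p = 0.0880) and 0.45 with no normalization (adjusted p = 0.800). Without normalization TBI exceeded control by 0.63 (adjusted p = 0.156). With slide as a random block the adjusted p of the brightest probe for TBI against control was 0.0373. That block does not correct TBI for slide, because TBI and slide coincide, and its consensus correlation was negative (-0.133), at which 6742 probes were called in all against 2305 without it.

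Of the other 4 Apob probes, 3 departed from the brightest in TBI rat 3 and probe 5 ran the same way as the brightest. For TBI against control probe 2 gave -0.06, probe 3 -0.03 and probe 4 -0.08, and the dimmest, probe 5, gave 0.64 (adjusted p = 0.163). On probe 5 all 3 TBI rats lay above the control mean by 0.44 to 0.75. Control rat 1 lay above it by 0.54, so that the groups overlapped. After quantile normalization TBI rat 3 decided the disagreement between probes. On probes 2, 3 and 4 it then lay 0.66, 0.54 and 0.75 below the control mean, whereas TBI rats 1 and 2 lay between 0.14 and 0.35 above it. Before normalization TBI rat 3, on the brightest array, read 13.40, 13.43 and 12.97 on these probes. The control rats then read 12.96 to 13.26, 12.81 to 13.26 and 12.50 to 12.96, so TBI rat 3 was below no control rat. Without TBI rat 3 these 3 probes gave 0.24, 0.22 and 0.25, and probe 5 stayed positive whichever rat was left out (0.44 to 0.91). All 4 dim probes were read at the normal scanner gain and the brightest at the lower gain. The part of the scan gain in the disagreement was not tested.

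**Figure D3:**
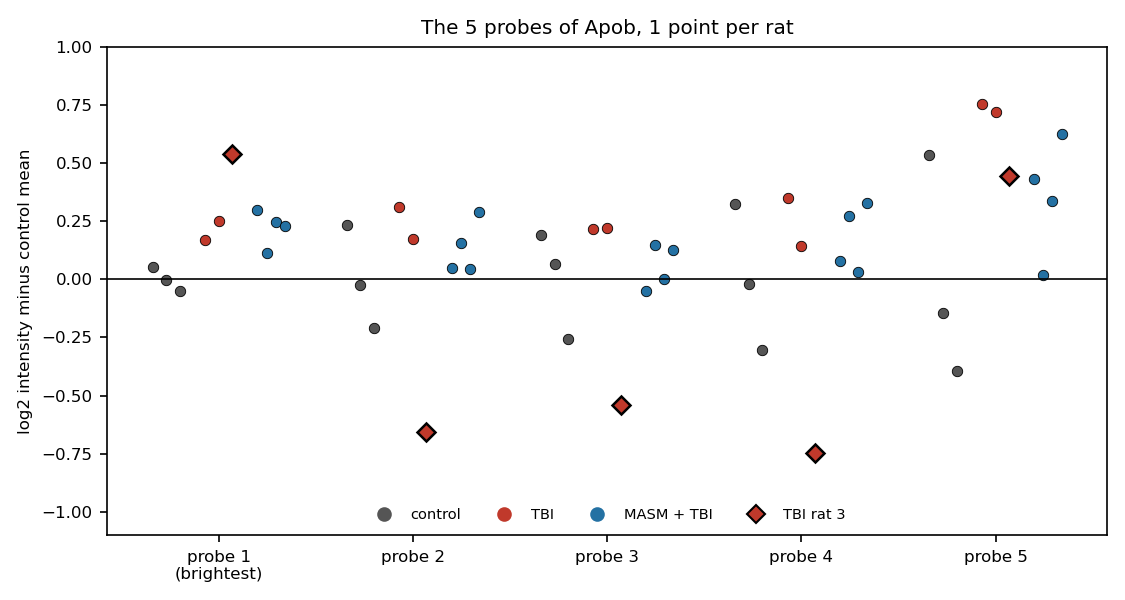
Log2 intensity after quantile normalization of each of the 5 Apob probes minus the mean of the 3 control rats on that probe, 1 point per rat and TBI rat 3 as a diamond. TBI rat 3 is the highest rat on probe 1 and the lowest on probes 2, 3 and 4.

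The 5 genes whose pattern over the 10 arrays was closest to that of Apob, among 8422 genes well above background on every array, were Sh3bgrl1 (Pearson r = 0.977), Sema6a (0.973), Ppp2ca (0.972), Cul1 (0.970) and Twf1 (0.964). The arrays share slides and groups, so these values describe likeness only. For TBI against control they gave log2 differences of 0.50, 0.68, 0.41, 0.46 and 0.29, with adjusted p-values from 0.0815 to 0.191.

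Among the HDL proteins, Apoa1 had log2 intensities of 16.53 to 16.82 in control, 16.33 to 16.73 in TBI and 16.56 to 16.89 in MASM + TBI. The groups overlapped, and TBI differed from control by -0.08 (SE 0.14, adjusted p = 0.761). Apoa2 ran from 16.93 to 17.18 in control, from 16.76 to 17.23 in TBI and from 16.73 to 16.96 in MASM + TBI. Its MASM + TBI rats had the lowest mean of the 3 groups, 0.24 below control (adjusted p = 0.391). Apom, an HDL protein that binds sphingosine-1-phosphate, ran from 15.33 to 15.79 in control, from 15.49 to 15.76 in TBI and from 15.60 to 15.76 in MASM + TBI. Control rat 2 was the lowest of all 10 rats for Apom. TBI differed from control by 0.02 (95% interval -0.28 to 0.33).

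Apoa4 and Apoa5 are neighbours in the chromosome 8 cluster. The 250 bases before each annotated start are shown because the estimates for these neighbours had opposite signs, with the same stretch for Apoc2 of the other cluster, whose adjusted p for MASM + TBI against TBI was the smallest among the members. RefSeq's promoter table (GRCr8) held 6 of the 10 members (Apoa4, Apoa5, Apoc2, Apoe, Apoh and Apom). Capitals mark exact matches on either strand to AAAGTCCA (part of the sequence bound by HNF4A, a liver nuclear receptor) or to 3 shorter motifs. The first of these is the nuclear receptor half-site, spelled AGGTCA. The E-box is searched as the palindrome CACGTG. The remaining motif stands for the TATA box and is spelled TATAAA. The stretches lie at chr8:55435529-55435778 on the plus strand for Apoa4, chr8:55457621-55457870 on the plus strand for the first of 2 annotated starts of Apoa5, and chr1:88462366-88462615 on the minus strand for Apoc2.
Apoa4: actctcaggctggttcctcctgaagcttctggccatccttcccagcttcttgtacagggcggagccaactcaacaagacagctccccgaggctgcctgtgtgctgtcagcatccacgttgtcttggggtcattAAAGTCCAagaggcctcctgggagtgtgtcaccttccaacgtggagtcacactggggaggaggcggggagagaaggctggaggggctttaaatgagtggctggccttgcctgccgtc
Apoa5: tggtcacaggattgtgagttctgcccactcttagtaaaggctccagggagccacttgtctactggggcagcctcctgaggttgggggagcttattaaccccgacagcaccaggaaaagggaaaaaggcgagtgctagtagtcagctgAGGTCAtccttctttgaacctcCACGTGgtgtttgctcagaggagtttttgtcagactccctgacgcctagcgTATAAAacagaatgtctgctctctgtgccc
Apoc2: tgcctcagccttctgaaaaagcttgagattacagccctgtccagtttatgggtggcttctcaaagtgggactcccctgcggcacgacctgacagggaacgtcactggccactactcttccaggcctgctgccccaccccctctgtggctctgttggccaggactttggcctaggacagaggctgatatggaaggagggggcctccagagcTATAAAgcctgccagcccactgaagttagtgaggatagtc

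The motif AAAGTCCA occurred in the stretch of Apoa4, 117 bases before the start, and in 1.19% of the 33469 stretches of this length in the table. TATAAA occurred 30 bases before the start in Apoa5 and 40 bases before it in Apoc2, and in 12.9% of all stretches. Apoa5 also held AGGTCA, 103 bases before the start and present in 14.1% of all stretches, and its E-box letters lay 81 bases before the start, with 5.59% of all stretches holding them. These matches describe letters and carry no measurement of binding.

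Apoa4 encodes ApoA-IV, which in rats is made by liver as well as intestine and rides on triglyceride-rich particles and HDL. Control rats had log2 intensities of 17.32, 16.73 and 17.26. TBI rats had 16.76, 15.78 and 16.17, and MASM + TBI rats had 16.41, 16.42, 17.09 and 16.49. The group values were 17.11 ± 0.32 (SD, n = 3), 16.24 ± 0.50 (SD, n = 3) and 16.60 ± 0.33 (SD, n = 4). TBI rats 2 and 3 lay below every control rat, and TBI rat 1 lay just above control rat 2. TBI differed from control by -0.87 (SE 0.29, 95% interval -1.53 to -0.21, unadjusted p = 0.0163, adjusted p = 0.120 in limma). With each rat left out in turn the difference ran from -1.13 to -0.64 (adjusted p from 0.0592 to 0.272), and Apoa4 no longer met the methods' threshold without control rat 1, control rat 3 or TBI rat 2. With slide as a random block, under the limits given for Apob, the difference was -0.94 (adjusted p = 0.0317).

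MASM + TBI differed from control by -0.50 for Apoa4 (SE 0.27, adjusted p = 0.415) and from TBI by 0.37 (SE 0.27, adjusted p = 0.539). The difference from TBI was 0.13 without TBI rat 2, 0.20 without MASM + TBI rat 3 and 0.63 without TBI rat 1. The MASM + TBI group was not uniform. Rat 3, on the slide of the control rats, lay 0.01 below the control mean, and the 3 rats on slide 3 lay 0.66 below it on average. With slide as a fixed block the difference from control was therefore -0.01. In bulk liver, fewer cells of a type and less RNA per cell cannot be told apart from a single gene. Beside the Apoa4 value for TBI against control, the other 9 members lay between -0.10 and 0.32, and the 10 hepatocyte markers had a median difference of 0.13, from -0.52 for Ttr (transthyretin, adjusted p = 0.102) to 0.51 for Cps1 (a urea cycle enzyme, adjusted p = 0.272). Enterocyte markers had a lower summed linear signal in TBI (631 to 962) than in control (1111 to 1621), with 774 to 1313 in MASM + TBI. Cdh17 carried this lower sum, with a log2 difference of -4.36 for TBI against control. Lct gave -0.80, whereas Fabp2 (0.68) and Vil1 (0.95) were higher. Of these 4 markers Lct was well above background on 0 arrays, Vil1 on 1, Cdh17 on 9 and Fabp2 on all 10, and none of them was called for TBI against control. Cdh17, a cadherin, had a log2 intensity of 9.84 ± 0.34 in control (SD, n = 3). It had 5.48 ± 2.05 in TBI (SD, n = 3) and 5.61 ± 2.41 in MASM + TBI (SD, n = 4), with adjusted p = 0.117 and 0.147 against control. The irradiated rats were thus uneven. Whether the signal of Cdh17 in these livers came from gut cells was not tested. Fabp2, a fatty acid binding protein, went the other way and was the marker called for MASM + TBI against control, where it was higher by 0.82 (adjusted p = 0.0425), a call lost in 8 of the 10 fits that left out 1 rat (adjusted p up to 0.120). Their part in the Apoa4 values was not tested.

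Apoa5, the promoter of triglyceride hydrolysis, ran the other way in its estimate. Control rats had 15.84, 15.95 and 15.68, TBI rats 15.86, 16.10 and 16.21, and MASM + TBI rats 15.92, 15.93, 15.96 and 15.97. TBI rats 2 and 3 were above all control rats, and TBI rat 1 was within their range. The difference between TBI and control was 0.24 (SE 0.11, adjusted p = 0.227), and that between MASM + TBI and control was 0.12 (adjusted p = 0.617).

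Ratios of 2 probes on the same array do not depend on how arrays were scaled. Before normalization the log2 ratio of Apoa4 to Apoa1 was 0.84, 0.22 and 0.52 in control rats, 0.44, -0.82 and -0.60 in TBI rats, and -0.32, -0.17, 0.31 and -0.27 in MASM + TBI rats. TBI rats 2 and 3 and the MASM + TBI rats of slide 3 were below every control rat. The log2 ratio of Apoa4 to Apoa5 was between 0.85 and 1.65 in control rats and 0.84, -0.36 and -0.07 in TBI rats. It was 0.54, 0.51, 1.05 and 0.57 in MASM + TBI rats. Here every TBI rat was below every control rat, though TBI rat 1 and control rat 2 were nearly equal. The log2 ratio of the brightest Apob probe to Apoa1 was -0.81 to -0.43 in control and -0.28 to -0.13 in TBI. It was -0.49 to -0.37 in MASM + TBI. On this probe the TBI rats stood above both other groups, and the ratio was not formed for the other Apob probes. These ratios were chosen after the values were seen and were not tested.

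**Figure D4:**
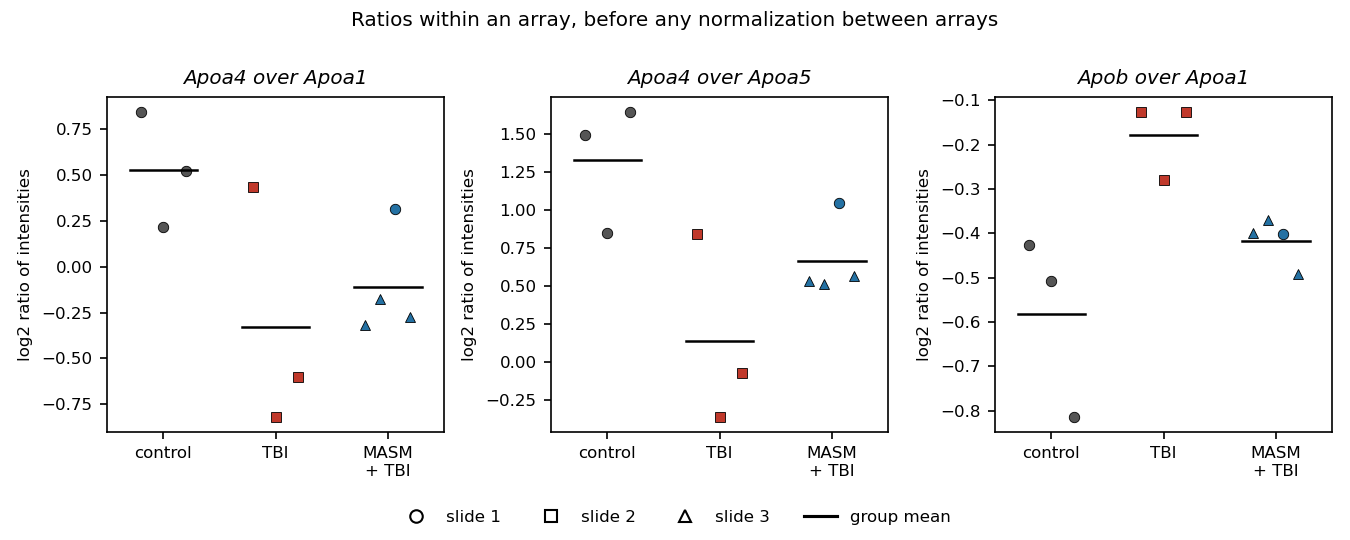
Log2 ratio of the intensities of 2 probes on the same array, before any normalization between arrays, 1 point per rat, with the group mean (line) and the slide as the shape of the point. Each gene is read from its brightest probe. The level of a ratio has no meaning by itself, and only its shift between rats can be read. The ratio of Apoa4 to Apoa5 was 0.85 to 1.65 in control rats and -0.36 to 0.84 in TBI rats.

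Apoc2 and Apoc3 had small estimated differences after quantile normalization. Apoc2, the activator, had log2 intensities of 16.79, 16.75 and 16.89 in control, 16.82, 16.72 and 16.75 in TBI, and 16.91, 16.82, 16.99 and 17.02 in MASM + TBI. The MASM + TBI rats were the highest, apart from rat 2, which lay among the TBI rats. MASM + TBI exceeded TBI by 0.17 (SE 0.08, adjusted p = 0.302), and TBI differed from control by -0.05 (95% interval -0.24 to 0.14). Apoc3, the inhibitor, ranked between position 1 and position 5 of all probes on every array, with 18.09 to 18.18 in control, 18.07 to 18.29 in TBI and 18.13 to 18.29 in MASM + TBI. Quantile normalization assigns such probes nearly the same value on each array, and the sign of the difference between TBI and control turned from 0.05 to -0.26 with cyclic loess and to -0.16 with scaling to the 75th percentile. The second Apoc3 probe differed between TBI and control by 0.02 (adjusted p = 0.911).

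Apoe, the ligand of remnant receptors, had the smallest spread within groups after quantile normalization. It ran from 17.98 to 18.07 in control, from 17.86 to 18.01 in TBI and from 17.91 to 18.02 in MASM + TBI. The difference between TBI and control was -0.08 (95% interval -0.24 to 0.09) and that between MASM + TBI and TBI was 0.02 (95% interval -0.14 to 0.17). Apoe ranked between position 5 and position 16 of all probes, so that the limit of quantile normalization given for Apoc3 applies to it too. With cyclic loess Apoe differed from control by -0.32 in TBI (adjusted p = 0.148) and by -0.27 in MASM + TBI (adjusted p = 0.279), and with scaling to the 75th percentile by -0.22 in TBI (adjusted p = 0.468). Macrophages make ApoE too. The summed signal of 8 markers of Kupffer cells, the macrophages of the liver, was 90220 to 139100 in control, 94570 to 174200 in TBI and 73030 to 93980 in MASM + TBI, with 0 of 8 called in any comparison.

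Apoh, or beta-2-glycoprotein I, binds anionic phospholipid. It ran from 16.78 to 16.93 in control and from 16.65 to 17.04 in TBI, with 17.10, 16.75, 17.05 and 17.06 in MASM + TBI. MASM + TBI rat 2 lay apart from its group. MASM + TBI exceeded control by 0.13 (SE 0.12, adjusted p = 0.694) and TBI by 0.18 (SE 0.12, adjusted p = 0.494). With scaling to the 75th percentile these differences were 0.23 (adjusted p = 0.357) and 0.30 (adjusted p = 0.106), and with no normalization 0.26 and 0.04.

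Other genes of the pathway were taken from lists of named genes. In the machinery of VLDL assembly, which includes Mttp, the protein that loads lipid onto ApoB, 0 of 14 measured genes were called in any comparison, and Mttp itself exceeded control by 0.40 in TBI (adjusted p = 0.122) and by 0.44 in MASM + TBI (adjusted p = 0.106). In HDL and plasma lipoprotein remodelling, which includes Lcat, the enzyme that esterifies HDL cholesterol, 0 of 11 were called. Of 13 genes of lipoprotein receptors, 3 were called higher in TBI than in control, beside 6.63% of all genes, and 1 of the 3 was well above background throughout. That gene, Lrp1, the hepatic remnant receptor, was higher by 0.57 (SE 0.11, adjusted p = 0.0260), with log2 means of 10.03 ± 0.11 in control (SD, n = 3) and 10.60 ± 0.08 in TBI (SD, n = 3). The call for Lrp1 was lost when any 1 control rat, TBI rat 1 or TBI rat 2 was left out (adjusted p up to 0.0782). Cubn and Amn, parts of an HDL and vitamin receptor of kidney and gut, were well above background on 1 and 0 of the 10 arrays, so that no fold is given. Amn was also called for MASM + TBI against TBI, again on signals that were not well above background.

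Of 29 measured transcription factors that act on apolipoprotein genes, 1 was higher and 2 were lower in TBI than in control, and 0 were called in the other comparisons. The called share over all genes for TBI against control was 6.63%. Nr1h4, the bile acid receptor FXR, was higher by 0.66 (SE 0.15, adjusted p = 0.0431). Nr5a2, the nuclear receptor LRH-1, was lower by 0.45 (SE 0.10, adjusted p = 0.0353), and Nr1d1, the clock repressor REV-ERB alpha, was lower by 0.80 (SE 0.16, adjusted p = 0.0260). The calls were lost in 8, 7 and 4 of the 10 fits that left out 1 rat, with adjusted p-values up to 0.113, 0.0976 and 0.0811. The time of day at which livers were taken is not in the labels, and its part in the Nr1d1 values was not tested. Hnf4a, the hepatocyte receptor named above for its site, differed by -0.01 (SE 0.13, adjusted p = 0.969).

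Among 8 other apolipoproteins, Apod, a lipocalin made mainly outside the liver, was the member called. Its probe was well above background on 0 of 3 control, 3 of 3 TBI and 3 of 4 MASM + TBI arrays. In the main fit it was at least 1.42-fold higher in TBI than in control (adjusted p = 0.00329) and at least 1.16-fold higher in MASM + TBI than in control (adjusted p = 0.00884). The bound sets the mean of the brighter group against the dimmest signal well above background on each control array. Bounds of this kind, here and for the lymphocyte markers, hold for the main background subtraction only and carry no sampling error. With a normexp background correction Apod was called in neither comparison (0.11 and 0.09). Apoc1 and Apoc4, which lie between Apoe and Apoc2, differed between TBI and control by 0.03 (adjusted p = 0.840) and 0.12 (adjusted p = 0.546).

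Of the genes beside the chromosome 8 cluster 1 of 6 was called for TBI against control, and the same gene for MASM + TBI against control, beside 6.63% and 3.7% of all genes. Of those beside the chromosome 1 cluster 0 of 7 were called in any comparison. The called gene was Pcsk7, a proprotein convertase, with log2 means of 6.98 ± 0.09 in control (SD, n = 3), 7.48 ± 0.10 in TBI (SD, n = 3) and 7.84 ± 0.10 in MASM + TBI (SD, n = 4). It was higher in TBI by 0.50 (SE 0.10, adjusted p = 0.0247) and in MASM + TBI by 0.86 (SE 0.09, adjusted p = 0.00259). The call for TBI was lost without any 1 of the control rats or without TBI rat 1 (adjusted p up to 0.0734). Zpr1, which adjoins Apoa5, differed between TBI and control by 0.00 (SE 0.11).

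**Figure D5:**
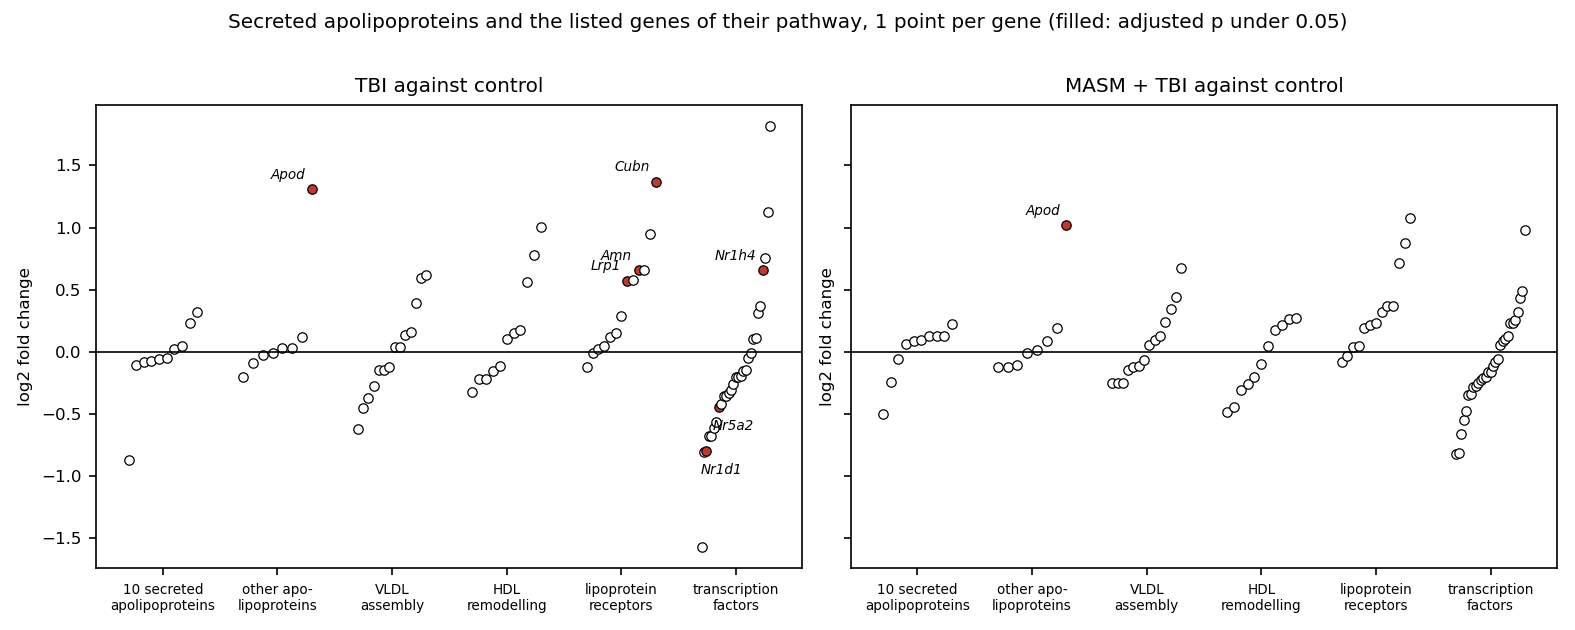
Log2 fold change of the 10 members and of the listed genes of their pathway, 1 point per gene and filled where the adjusted p was under 0.05, for TBI against control (left) and MASM + TBI against control (right). No member is filled. Cubn and Amn are filled at signals not well above background on most arrays, and the plotted values of Apod are fitted ones, for which the text gives bounds.

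Hepatocyte markers were abundant. All 10 were well above background on all arrays, with summed linear signals of 1693000 to 1770000 in control, 1680000 to 1958000 in TBI and 1804000 to 1931000 in MASM + TBI, and 0 of 10 were called in any comparison. Of 8 markers of lymphocytes, 2 of which were well above background on all arrays, 3 were called lower in TBI and 2 in MASM + TBI, beside 6.63% and 3.7% of all genes called in either direction. The markers did not all run the same way, and of the 2 above background throughout Cd3d gave -0.78 (adjusted p = 0.214) and Cd4 gave 0.71 (adjusted p = 0.285) for TBI against control. Cd2, a T cell surface protein, was at least 5.13-fold lower in TBI (adjusted p = 0.00622). Cd3e, called in both, was well above background on 0 arrays, so that no fold is given. Cd79b, a chain of the B cell receptor, was at least 4.97-fold lower in TBI (adjusted p = 0.00484) and at least 2.55-fold lower in MASM + TBI (adjusted p = 0.00378), at like means of 2.29 and 2.18, since each bound depends on the dimmest detected signal of its own arrays. For TBI against control with a normexp background correction Cd79b gave -0.31 and Cd2 gave -0.47 on the log2 scale, and Cd79b was no longer called. Of 7 stellate cell markers Lrat, which stores vitamin A as esters, was lower by 0.62 in TBI (adjusted p = 0.0116) and by 0.60 in MASM + TBI (adjusted p = 0.0147), while the list had a median of -0.03 in TBI and reached 0.72 for Dcn (adjusted p = 0.379). Among 3 erythroid markers Ahsp was lower by 1.39 in MASM + TBI (adjusted p = 0.0386), a call lost in 8 of the 10 fits that left out 1 rat (adjusted p up to 0.124). None of 4 endothelial or 3 bile duct markers was called.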

How the data were processed

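Liver RNA of 10 rats was labelled with Cy3 and hybridised to 1 Agilent rat array each. The authors deposited a processed intensity for each spot from Feature Extraction 10.7.3.1, with background subtracted and no normalization between arrays, and their series table repeats these intensities. The files give no gene names, so probes were named by matching their accession to RefSeq. Control spots (1639 of 45018 per array) and outlier spots were left out. After log2 transformation the arrays were quantile-normalized, as the study's methods state, and spots of a probe were averaged, and 40945 of 41012 probes had a value on every array. A gene was read from its brightest probe. A mean per group was fitted to all 10 arrays with limma 3.58.1 in R 4.3.3 (prior degrees of freedom 1.43), with Benjamini-Hochberg adjustment over all probes, so each adjusted p is limma's. The script was tested on simulated data. Replicates are separate rats, and the number of arrays limits the precision. Positions of probes are not given, since the arrays and the gene table rest on different builds. The members, the lists and the alternatives were chosen with earlier results of these data known, and the alternatives for listed genes and for single Apob probes were added after their values were seen. Named genes are all members, the called genes of each pathway list, the neighbours of the clusters by count, the 5 genes most like the member with the smallest F p-value, and Cdkn1a. Hnf4a, Mttp, Lcat, Apoc1, Apoc4, Zpr1 and the cell type markers were named after their values were seen. Other settings tried were the 75th percentile as scale, no normalization between arrays, cyclic loess, a normexp correction (offset 50) on median pixels, the series table, filters on dim probes and saturated spots, fits restricted to 2 groups, the methods' t-test without equal variances, a robust trended prior, replicate number or slide as a block, averaging of a gene's probes, linear means for folds, and omission of each rat. Plots were drawn with matplotlib in Python. Survival, microscopy and real-time PCR were not analysed here.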

Additional observations from a re-analysis of the deposited data

Results flagged for a closer look

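In the MASM + TBI group, the only group of 4 rats, the distance of the most extreme rat to its nearest neighbour was set against the range of the group for each of the 10 members. MASM + TBI rat 3 was the extreme for Apoa4, with a log2 intensity of 17.09 against 16.49 for the next rat, a gap of 0.885 of the range. This rat shared its slide with the control rats. MASM + TBI rat 2 was the extreme for Apoh, with 16.75 against 17.05 for the next rat, a gap of 0.848 of the range. Chance marks about 1 in 20 groups in this way.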

How the results depend on the processing

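At an adjusted p under 0.05 the number of members called was 0 in each comparison under every alternative run except slide as a random block, which called 2 for TBI against control (Apoa4 at -0.94 and Apob at 0.32), a fit that cannot separate TBI from slide. At the threshold of the methods, the count for TBI against control was 0 by the methods' t-test and ranged from 0 to 1 with each rat left out (0 without control rat 1, control rat 3 or TBI rat 2). With no normalization Apoa4 missed this threshold (-0.63, unadjusted p = 0.0541 in limma) and Apob met it (0.63, unadjusted p = 0.0401 in limma). For MASM + TBI against control the count was 1 with slide as a random block, and with each rat left out the count ranged from 0 to 1 both there (1 without MASM + TBI rat 3) and for MASM + TBI against TBI (1 without TBI rat 1). The replicate numbers did not pair the rats (correlations of same-numbered deviations from -0.125 to 0.169), and the replicate block called 0 members in each comparison, and 1053, 298 and 22 probes in all in place of 2305, 1225 and 666 for TBI against control, MASM + TBI against control and MASM + TBI against TBI. Counts of all probes called were, in that order, 7458, 815 and 5459 with scaling to the 75th percentile, 1264, 153 and 508 with no normalization, 972, 1370 and 263 in fits of 2 groups, 10, 40 and 4 by the methods' t-test, 6742, 2852 and 2048 with slide as a random block, and 946 to 2828, 483 to 1512 and 254 to 1304 with each rat left out. Slide as a fixed block could not be fitted for either comparison with TBI. Of the log2 differences of single members, 407 kept sign and side of the threshold under the alternatives that used all rats, 21 turned sign and 2 became called, and with each rat left out 287 kept and 13 turned. The 407 include values that could not move, from the series table, which repeats the intensities, and from the filter on saturated spots, which found none. Linear means reused the p-values of the main fit, and averaging of probes could change the signal of only Apob and Apoc3. Those that turned for TBI against control were Apoc3 at -0.16 with scaling to the 75th percentile, -0.26 with cyclic loess and -0.05 with normexp, and, with no normalization, Apoa1 at 0.22, Apoa2 at 0.21, Apoc2 at 0.28, Apoe at 0.06 and Apoh at 0.22, where all probes shifted by a median of 0.218. For MASM + TBI against control, Apoc3 gave -0.02 with scaling to the 75th percentile, -0.25 with cyclic loess, -0.06 with normexp and -0.01 with slide as a fixed block. For MASM + TBI against TBI, scaling to the 75th percentile gave Apoa5 0.01 and Apob 0.08, no normalization gave Apoc3 -0.12, Apoe -0.09 and Apom -0.11 beside a shift of all probes of -0.182, normexp and the replicate block gave Apoc3 -0.01 and -0.02, and the mean over all probes gave Apob 0.03 and Apoc3 -0.03. With each rat left out the ranges that crossed 0 for TBI against control were -0.17 to 0.04 for Apoa1, -0.22 to 0.01 for Apoa2, -0.01 to 0.11 for Apoc3, -0.18 to 0.02 for Apoh and -0.12 to 0.11 for Apom. For MASM + TBI against control the range was -0.06 to 0.17 for Apom. For MASM + TBI against TBI the ranges were -0.18 to 0.01 for Apob, -0.04 to 0.07 for Apoc3, -0.02 to 0.05 for Apoe and -0.01 to 0.12 for Apom. The Apob probes 2, 3 and 4 gave, for TBI against control, 0.00, 0.04 and 0.00 with scaling to the 75th percentile, 0.29, 0.33 and 0.29 with no normalization, and ranges of -0.24 to 0.24, -0.16 to 0.22 and -0.30 to 0.25 with each rat left out, where TBI rat 3 gave the highest value. Apart from the shifts of all probes, the causes were not tested. Listed genes called in a comparison, with Cdkn1a counted among them, kept their call in 397 of 531 refits and turned sign in 0. Cdkn1a alone kept its call in 23 of 24 refits for TBI against control and in 24 of 25 for MASM + TBI against control. The refits include the series table and the filter on saturated spots, which repeat the main fit. With normexp the change of Apod was 0.11 in TBI and 0.09 in MASM + TBI, and neither was called. All members were far above background, so detection did not limit them.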
